A study of Brassica napus with 6 samples.

Results

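The seed-filling step of droughted oilseed rape (Brassica napus) was described by setting the seed library of day 40 after flowering against that of day 30, both from plants kept under drought stress from the first flowers onwards. These are 2 of the 6 libraries of the study, and they were chosen by their treatment and day labels. The other 4 came from control seeds of days 30, 40 and 50 and from droughted seeds of day 50, with 1 library for each treatment and day. All plants grew beneath a rain shelter, and the growth label speaks of several lines without saying which line or lines each library holds. No plant count, pooling or repeat is given, so every difference below describes libraries, has no replicate check and carries no p-value.

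Oilseed rape is an allotetraploid with an A and a C subgenome, so most genes have near-identical copies that can share reads. In Brassica seeds the embryo first divides and grows, and then enters a filling phase in which it deposits storage proteins and oil. In that phase a small set of storage protein genes is known to take up a large part of the seed's messenger RNA, and late maturation genes follow as the seed dries. The files give no names for their IDs. Of 72611 IDs, 0 were found in RefSeq's gene table for the Da-Ae assembly. Seed marker genes could therefore not be looked up, the tissue label was not checked against them, and the genes below carry no names or roles. Only 4 IDs are printed.

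The drought libraries held 16177156 counted reads at day 30 and 10314859 at day 40, and the other 4 held 12209126 to 15024986. Levels are counts per 1000000 reads (CPM) after TMM scaling (trimmed mean of M values), which sets the bulk of genes level between libraries. With this scaling every fold of day 40 over day 30 in droughted seeds is 1.68 times as large as with division by library totals. In whole seeds, fewer cells of a type and less RNA per cell cannot be told apart.

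By day 40 the droughted seed library had become much more concentrated. At day 30 it took the 3751 most abundant genes to hold 50% of the reads, and at day 40 it took 511. The top 10 genes by read count held 2.58% of reads at day 30 (95% exact binomial interval 2.58 to 2.59%) and 24.6% at day 40 (24.5 to 24.6%). These intervals cover counting error only. The 1000 most abundant genes went from 29.0% to 55.5%. The effective number of genes, which is the number of equally abundant genes that would give the same Shannon entropy, went from 16799 to 2931. In control seeds the genes holding 50% of reads numbered 3637, 2133 and 988 at the 3 days. The drought library of day 40 thus had the most concentrated reads of the 6 by this count, and the drought library of day 50 stood at 1120.

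**Figure D1:**
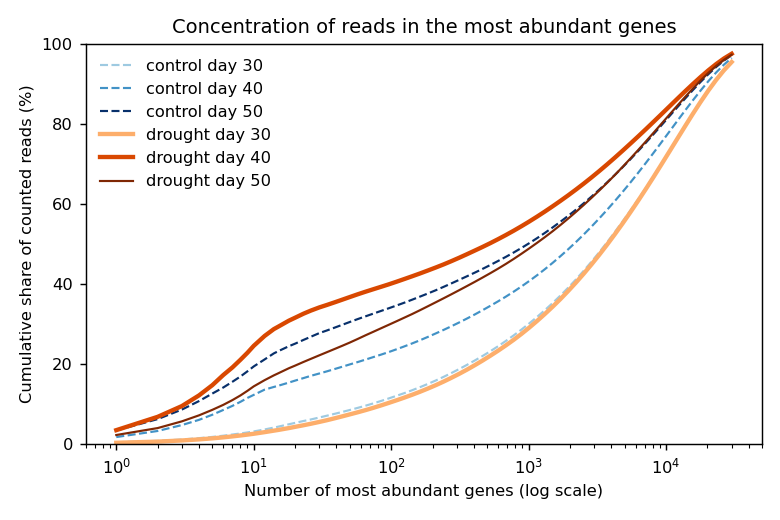
Cumulative share of counted reads (%) held by the most abundant genes of each of the 6 libraries, against the number of genes on a log scale. The line of drought day 40 lies highest, with 24.6% in 10 genes and 55.5% in 1000, and drought day 30 holds 2.58% and 29.0%, below the other 5 libraries at both of these ranks.

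Fewer genes had any read at day 40, part of which comes with the lower depth. A read was seen for 62269 genes at day 30 and for 56614 at day 40. With the day 30 library brought by calculation to the depth of day 40, 60409 genes would be expected to have a read there. This calculation matched the total of counted reads alone. At day 40 the 10 most abundant genes held 24.6% of reads, which left fewer reads for the other genes. How much this lowered the number of genes with a read was not tested. The number of genes at 5 CPM or more changed less, from 26588 to 26185. Those at 1000 CPM or more went from 21 to 63, and those at 5000 CPM or more from 0 to 18.

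The 10 most abundant genes of droughted seeds at day 40 were already among the abundant genes of day 30. All 10 ranked between 2 and 38 by read count at day 30, where together they held 1.96% of reads. The same 10 genes were the 10 most abundant of control seeds at day 40, where they held 12.3%. They fell into 2 sizes of gene. Of the 10, 6 had lengths of 519 to 561 bases and together went from 1.42% of reads at day 30 to 14.9% at day 40. The other 4, of 1374 to 1640 bases, went from 0.540% to 9.67%. In TMM-scaled CPM the shorter genes were 10.2 to 25.6-fold higher at day 40 and the longer ones 20.4 to 42.3-fold higher. By share of reads these folds were 6.05 to 15.2 and 12.1 to 25.1. The grouping by size was made after the values were seen. The 10 genes were chosen for their drought day 40 level, which favours higher values there than on the other days.

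The most abundant gene of day 40, one of the shorter genes, had drought levels of 2076, 45317 and 14411 CPM at days 30, 40 and 50. In control seeds it stood at 3593, 12154 and 16668 CPM. Its highest level of the 6 was therefore in droughted seeds at day 40, where it held 3.49% of all reads. After day 40 the drought levels of all 10 genes were lower: at day 50 the shorter genes were 1.67 to 3.34-fold below their day 40 level and the longer ones 1.32 to 1.68-fold below. In control seeds the same genes were higher at day 50 than at day 40, by 1.34 to 1.82-fold for the shorter and 1.96 to 2.73-fold for the longer genes.

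The set of abundant genes also turned over. Of the 100 most abundant genes at day 40, 38 had been among the 100 at day 30, against 58 in the same step of control seeds. Of these 100 day 40 genes, 78 were at least 2-fold higher at day 40 than at day 30. Together the 100 genes went from 6.34% to 40.1% of reads. They were chosen for their level at day 40, so the choice itself favours genes that were higher there. Of the 100 most abundant genes of day 30, 29 were at least 2-fold lower at day 40 and 16 at least 2-fold higher. That list was chosen at day 30, which favours genes that were lower at day 40. Among all genes averaging 5 CPM or more over both libraries, 12.6% were at least 2-fold higher at day 40 and 11.1% lower. The most abundant gene of day 30, a gene of 399 bases, stood at 2567 CPM then and at 598 CPM at day 40. It was at 73.1 CPM in droughted seeds at day 50, and at 2666, 847 and 368 CPM in control seeds of days 30, 40 and 50, so its level dropped from each sampled day to the next in both treatments.

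Genes entered the comparison when their levels averaged 5 CPM or more over the pair of libraries, as 27078 did. Of these, 3419 were at least 2-fold higher at day 40 (12.6%) and 3014 at least 2-fold lower (11.1%). A 4-fold limit left 1315 genes higher (4.86%) and 887 lower (3.28%), and a 16-fold limit 445 higher (1.64%) and 170 lower (0.628%). The larger the fold, the greater the share on the higher side: 53.2% of genes past 2-fold, 59.7% past 4-fold and 72.4% past 16-fold. The median gene lay at a log2 ratio of -0.01, and the interquartile range ran from -0.51 to 0.53. With division by library totals 27513 genes entered and their median lay at -0.79. The higher side then held 12.1% of genes past 2-fold, 24.6% of those past 4-fold and 45.2% of those past 16-fold, so that the larger side turned at each of these folds. With the authors' deposited FPKM values 42.9% of genes past 2-fold were higher.

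The share of genes that were higher at day 40 was greatest among the abundant ones. Of the 44 genes averaging 1000 CPM or more over the pair, 34 were at least 4-fold higher at day 40 and 2 at least 4-fold lower. Among the 334 genes from 200 to 1000 CPM, 90 were at least 4-fold higher and 18 lower. Among the 9196 genes from 5 to 10 CPM, 360 were higher and 404 lower. The mean over the pair includes day 40 itself, so a gene that was high there had a greater chance to enter the upper classes.

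**Figure D2:**
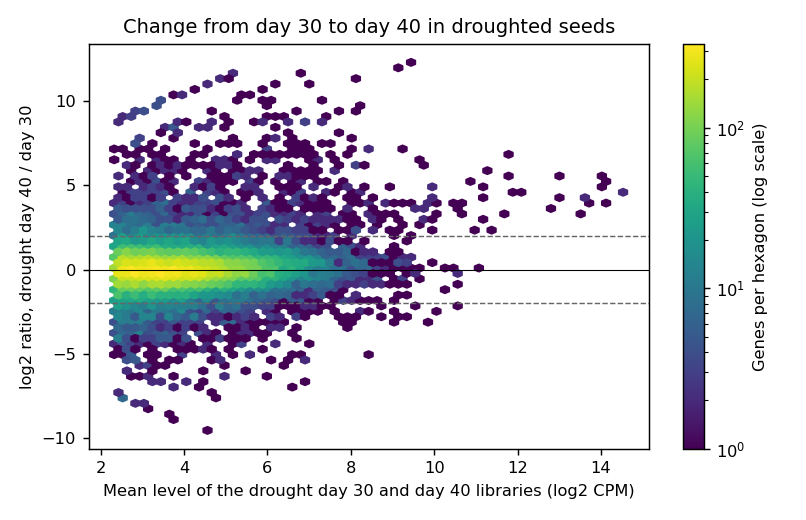
Log2 ratio of drought day 40 to day 30 against the mean level of both libraries (log2 CPM) for 27078 genes, as a count of genes per hexagon on a log colour scale, with dashed lines at 4-fold. Most genes lie between the lines, and at the right most hexagons lie above the upper line: 34 of the 44 genes at 1000 CPM or more are at least 4-fold higher.

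A gene was counted as switched on when it had at most 3 reads at day 30 and at least 5 CPM at day 40, and as switched off the other way round. By this rule 154 genes were switched on (0.437% of the 35218 genes averaging 2.5 CPM or more over the pair, the least that a switched gene can have) and 205 were switched off (0.582%). Of the 154, 59 had no read at all at day 30, and of the 205, 51 had none at day 40. In TMM-scaled CPM, genes switched on reached higher levels than those switched off had started from. Relative to day 30, this scaling makes day 40 levels 1.68 times as large as library totals do. The size of the gap therefore depends on the scaling, and these levels were not compared by library totals. At day 40 the genes switched on had a median of 13.4 CPM and a highest value of 262 CPM, and 53 of them were at 20 CPM or more. At day 30 the genes switched off had a median of 7.35 CPM and a highest value of 57.7 CPM, and 16 were at 20 CPM or more.

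The balance of on and off rests on the floor and the depth. Because 3 reads were worth 0.143 CPM at day 30 and 0.378 CPM at day 40, the rule asked more of genes switched on. With a common floor of 0.378 CPM in both libraries, 240 genes were switched on and 205 off, which turns the order of the counts. At the edge of the rule, the lowest gene switched on stood at 5.04 CPM and the highest one left out for its level at 4.91 CPM. For genes switched off these values were 5.01 and 4.96 CPM.

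The 2 most abundant genes switched on were BnaA07g21570D and BnaC01g26830D. BnaA07g21570D, a gene of 744 bases on chromosome A07, had 2 reads at day 30 and 2080 at day 40 in droughted seeds. Its drought levels were 0.0954, 262 and 769 CPM at days 30, 40 and 50, and its control levels 0.255, 60.2 and 579 CPM. In both treatments it was higher at each later day. BnaC01g26830D, of 907 bases on chromosome C01, had 1 read at day 30 and 1797 at day 40. It stood at 0.0477, 226 and 985 CPM in droughted seeds and at 0.319, 43.0 and 279 CPM in control seeds. The ratio of day 40 to day 30 in drought was 2745 for BnaA07g21570D (95% counting interval 759 to 22684) and 4744 for BnaC01g26830D (850 to 187465).

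The 2 most abundant genes switched off were BnaC04g40110D and BnaC06g03870D. BnaC04g40110D, of 2900 bases on chromosome C04, had 1209 reads at day 30 and 2 at day 40. It stood at 57.7, 0.252 and 0.465 CPM in droughted seeds of days 30, 40 and 50 and at 59.7, 1.03 and 1.32 CPM in control seeds. Both treatments thus showed a high level at day 30 alone. BnaC06g03870D, of 522 bases on chromosome C06, had 1059 reads at day 30 and 2 at day 40. Its drought levels were 50.5 and 0.252 CPM with no read at day 50, and its control levels were 38.7, 18.1 and 0.233 CPM, so that in control seeds it was still well above the floor at day 40. The ratio of day 30 to day 40 in drought was 229 for BnaC04g40110D (63.3 to 1893) and 201 for BnaC06g03870D (55.4 to 1658).

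In control seeds, whose libraries took no part in the choice, the switched genes mostly went the same way. Of the 154 genes switched on, 129 had a day 40 control level at least 4 times that of day 30, where 2.9% of the 35218 genes were. Of the 205 genes switched off, 119 were at least 4-fold lower over that control step, where 1.76% of all were. Reads under 3 were raised to 3 for these folds. Between control days 30 and 50 the numbers were 142 of 154 higher (5.05% of all) and 190 of 205 lower (5.26% of all). From day 30 to day 40, 3 genes of the first list and 1 of the second differed by 2-fold or more the opposite way.

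The median control levels of the switched genes at day 40 lay between those of control days 30 and 50. The genes switched on had medians of 0.0639, 3.18 and 15.2 CPM in control seeds of days 30, 40 and 50, against 0.0477, 13.4 and 33.3 CPM in droughted seeds. The genes switched off had control medians of 8.75, 1.57 and 0.233 CPM, against 7.35, 0.126 and 0.155 CPM in drought. The drought values of days 30 and 40 in these lists were fixed by the rule. Applied to the control step, the same rule gave 92 genes on (0.261%) and 193 off (0.548%). Of these, 35 were also in the drought list of genes on (22.7% of that list and 38.0% of the control list) and 30 in that of genes off (14.6% and 15.5%).

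**Figure D3:**
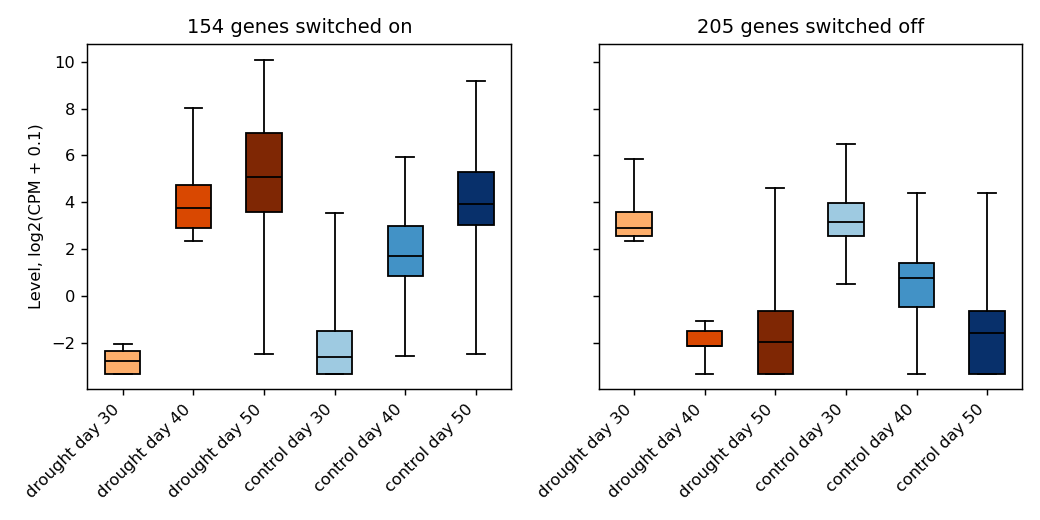
Levels, as log2(CPM + 0.1), of the 154 genes switched on and the 205 genes switched off in all 6 libraries, with boxes from the first to the third quartile, lines at the median and whiskers to the extremes. The medians of the first list are higher, and those of the second lower, at control day 50 than at control day 40.

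By day 50 in droughted seeds, 4 genes of each list were back at the level that the rule had asked of them at day 30. Among the genes switched on, 128 of 154 were at 5 CPM or more in droughted seeds at day 50, 91 were at least 2-fold above their day 40 level and 4 were back at 3 reads or fewer. Those 4 had been at 5.04 to 6.93 CPM at day 40, close to the limit of the rule. The whole list went from 0.307% of reads at day 40 to 1.34% at day 50. By the rule, all 154 were at 5 CPM or more at day 40. Of all 26624 genes averaging 5 CPM or more over drought days 40 and 50, 3756 were at least 2-fold higher at day 50. Among the genes switched off, 123 of 205 were at 3 reads or fewer at day 50, 82 were above 3 reads and 4 were back at 5 CPM or more. In all, 99 of the 205 had a higher level at day 50 than at day 40. The list was chosen for its few reads at day 40, so the rule itself favours a higher level at day 50. The day 50 library was also deeper, and 3 reads were worth 0.232 CPM there against 0.378 CPM at day 40. Of the 4 genes switched off that were back at 5 CPM or more, 2 stood at that level in every library except drought day 40. There both were at 0.126 CPM. In the same way, 3 genes were at the floor in drought day 50 alone and 1 in drought day 30 alone.

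The change from day 30 to day 40 in droughted seeds ran with the length of the gene. The 383 genes no longer than 400 bases had a median log2 ratio of 0.63, those over 400 and up to 700 bases 0.42, and those over 700 and up to 1000 bases 0.30. The median was 0.12 up to 1500 bases, -0.05 up to 2500 bases and -0.31 beyond, so it was lower in each longer class. Among genes over 400 and up to 700 bases 23.4% were at least 2-fold higher and 8.17% lower, and among genes over 2500 bases 4.97% were higher and 14.7% lower. The log2 ratio and log2 gene length correlated at -0.223 (Pearson) and -0.294 (Spearman) over the 27078 genes. Genes share libraries and are not independent replicates, and the lengths are the deposited ones, 67.5% of which are multiples of 3 as coding lengths would be. The authors' FPKM are scaled by length within each library. A length fixed for each gene cancels in a ratio of 2 days, so such scaling alone would not remove a length trend. With them the median was -0.18 for genes up to 400 bases, -0.40 over 2500 bases and -0.14 over all 27078 genes. The shortest class thus still lay above the longest but no longer above the median of all genes. The correlation was -0.162.

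The correlation with length was negative in each class of expression level. It was -0.211 among genes of 5 to 10 CPM, -0.235 from 10 to 50 CPM, -0.245 from 50 to 200 CPM and -0.277 above. It was -0.223 among A genes, -0.237 among C genes and -0.0791 among the 780 new gene models. It was -0.277 without the genes at least 4-fold apart. Outside the 1000 most abundant genes of each library, the mean gene length per read was 2019 bases at drought day 30 and 1883 at drought day 40, and between 1980 and 2063 bases in the other 4 libraries.

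The trend was compared with 4 other comparisons, and its direction turned with the place of the drought library of day 40 in the ratio. The control step from day 30 to day 40 had medians of -0.37 for genes up to 400 bases and 0.11 over 2500 bases, with a correlation of 0.0794. From day 40 to day 50 in droughted seeds the medians were -0.60 and 0.46, with a correlation of 0.273. Drought over control gave 0.71 and -0.31 at day 40, with a correlation of -0.394, and -0.24 and 0.09 at day 30, with a correlation of 0.204. Of these 5 comparisons the 3 that include the drought library of day 40 had the largest correlations in size, and they share that library. No other drought library of day 40 was analysed here, so the seeds and the library cannot be told apart.

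**Figure D4:**
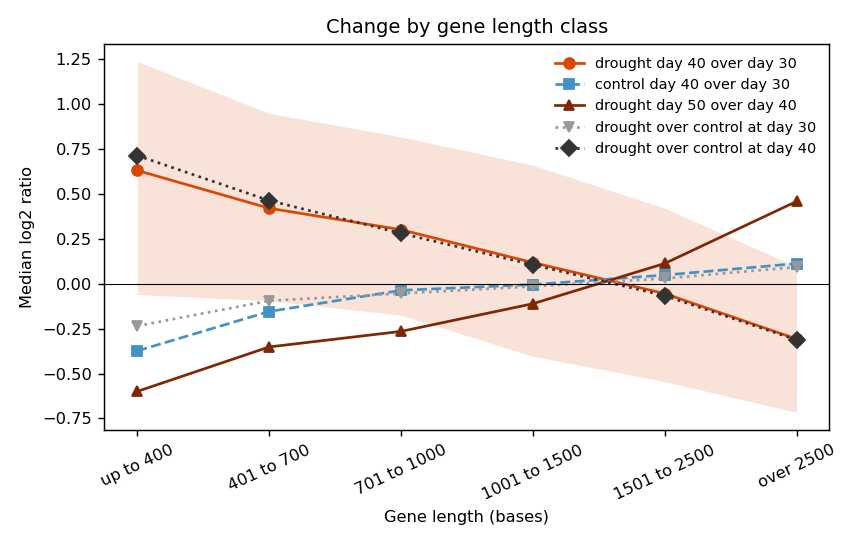
Median log2 ratio by class of gene length (bases) for 5 comparisons, with the interquartile range of the drought step from day 30 to day 40 shaded. The drought step and drought over control at day 40 go from above 0 in short genes to below 0 in long genes, and the step from drought day 40 to day 50 goes from -0.60 to 0.46.

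Switched genes were shorter than the genes compared by their median. The genes switched on had a median length of 1080 bases and those switched off of 1360, against 1576 over the 35218 genes. Of genes over 2500 bases, 5 of 7120 were switched on and 31 off. Of genes over 700 and up to 1000 bases, 30 of 4270 were switched on and 14 off. Among genes up to 400 bases 13 of 613 were switched on and 12 off, so both shares were high there.

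Set beside the same days in control seeds, the drought step went in the same direction for most genes that moved far. The 2 steps share no library. Over the 25556 genes averaging 5 CPM or more in both pairs, the log2 ratios correlated at 0.791 (Pearson) and 0.597 (Spearman), as a description across genes. The standard deviation of the log2 ratio was 1.26 in drought and 0.91 in control. In control seeds, 1972 of 26948 genes were at least 2-fold higher at day 40 (7.32%) and 1676 lower (6.22%), against the 12.6% and 11.1% of the drought step. Of the control genes 2.25% were at least 4-fold higher and 1.79% lower, and 0.653% and 0.583% were at least 16-fold higher and lower. In the common set, 1440 genes were at least 2-fold higher in both steps, which was 50.9% of the drought list and 76.7% of the control list. At least 2-fold lower in both were 1013 genes, 34.6% of the drought list and 74.2% of the control list.

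Genes that differed most over the control step had larger median differences over the drought step. Those with a control difference over 16-fold upwards, 171 in all, had a median log2 ratio of 5.24 there and of 6.49 in drought, and 122 of them were further up in drought. The 411 genes 4 to 16-fold higher in control had medians of 2.54 and 3.45, with 306 further up. On the lower side the gap was smaller: 260 genes with control differences of 4 to 16-fold downwards had medians of -2.54 and -2.85, with 136 further down in drought. The 49 genes over 16-fold lower had medians of -4.95 and -5.40, with 26 further down. The 22312 genes within 2-fold in control had a median of -0.05 in drought, with quartiles of -0.49 and 0.39. Relative to library totals, TMM scaling made folds 1.68 times as large in the drought step and 1.22 times in the control step. The sizes of the upper and lower gaps therefore depend on the scaling, and these classes were not compared with library totals. With 1 library per treatment and day, the difference between the steps could not be tested.

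Some genes moved in droughted seeds with little or opposite movement in control. Of 994 genes at least 4-fold higher over the drought step, 34 were within 1.5-fold over the control step, and of 854 at least 4-fold lower, 121 were. Most genes moved little in control: of all 25556 genes of the common set, 22312 were within 2-fold over the control step. The number of all genes within 1.5-fold was not counted. The 34 had a median length of 1020 bases and the 121 of 2015, against 1670 over the common set. At least 2-fold apart in opposite directions were 23 of the 25556 genes. Of the 23, 5 were higher in drought with a median length of 408 bases and 18 lower in drought with a median length of 2720 bases. These lengths run the way of the length trend. With that trend removed, 16 genes in place of 23 were 2-fold apart in opposite directions. Among genes averaging 20 CPM or more, a filter that leaves fewer genes, 5 were. The part of the trend in the lists of 34 and 121 genes was not tested.

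**Figure D5:**
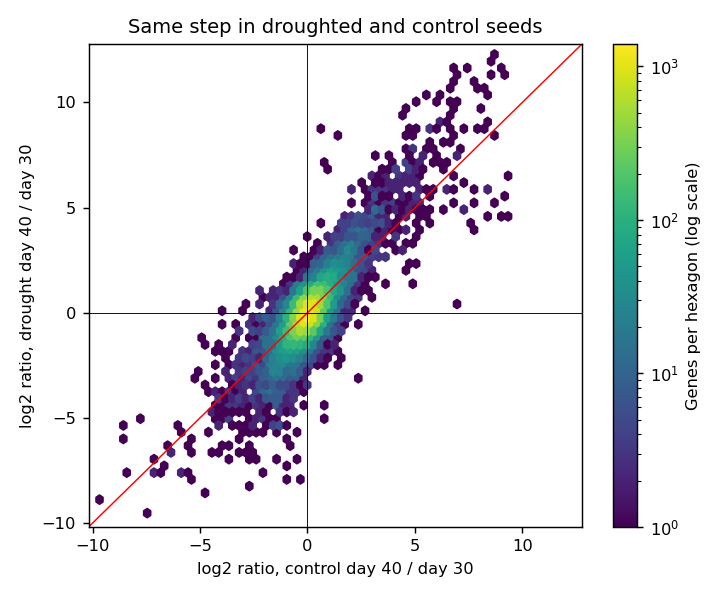
Log2 ratio of day 40 to day 30 in droughted seeds against that in control seeds for 25556 genes, as a count of genes per hexagon on a log colour scale, with equal change as the red line. The cloud runs along the line, with a correlation of 0.791, and the hexagons of the most raised genes lie mostly above it.

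Genes of both subgenomes were among those that differed. Of 12830 A genes 5.07% were at least 4-fold higher and 3.28% lower, and of 13423 C genes 4.58% and 3.10%. Of 780 new gene models 6.28% were at least 4-fold higher and 6.28% lower. Among the genes switched on 69 were A genes, 73 C genes and 11 new gene models, and among those switched off 100, 85 and 19. Of the A genes averaging 2.5 CPM or more over the pair, 0.416% were switched on and 0.603% off, and of such C genes 0.423% and 0.492%. New gene models made up 7.14% of genes switched on and 9.27% of genes switched off, and 3.72% of the genes averaging 2.5 CPM or more. By the chromosome in the ID, the share of genes at least 4-fold higher ran from 3.87% on A08 to 6.22% on A04, and that of genes at least 4-fold lower from 2.70% on A04 to 4.16% on A01. Differences between subgenomes and chromosomes were not tested.

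Some of the genes that differed had consecutive IDs, which number genes along a chromosome in this naming scheme. Only genes whose ID names a numbered chromosome were counted here. Of 1155 such genes at least 4-fold higher, 106 (9.18%) stood next to another gene of the same list. Of the 22702 other such genes compared, 3.87% stood next to a gene of that list. Of 759 genes at least 4-fold lower, 29 (3.82%) stood next to another of their list, against 2.68% of the 23098 others. Neighbouring copies of like sequence can share reads, so such neighbours may not be separate measurements, and the difference in shares was not tested.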

How the data were processed

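RNA of 6 Brassica napus seed libraries, 1 per treatment and day, was sequenced in paired reads, per the labels' protocols. The authors deposited raw counts per gene with a length for each gene, and FPKM values per library. How the deposited gene length, in bases, was defined is not stated. The submitters' processing notes name Cufflinks without version or role. For the aligner, counter, build, multi-mapping and strand: not given in the sources used here. No genome was used, so no coordinates or sequences are given.

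From the counts, TMM factors over all 6 libraries came from edgeR 4.0.16 in R 4.3.3. Log2 ratios used a prior of 0.5 reads and were read for genes averaging 5 CPM or more over the pair. Intervals are exact binomial (95%), and that of a ratio is conditional on the summed reads. They cover counting error only. The length trend was removed, where stated, with a lowess curve of span 0.3. Shared depth was set by the hypergeometric expectation. The scripts were tested on simulated data. FPKM were used only as an alternative, with a pseudocount of 0.1 for ratios.

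With 1 library per group no test was run. The named genes are the 2 most abundant switched on at day 40 and the 2 most abundant switched off at day 30. The comparison, lists and rules were chosen with earlier results of these data known.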

Additional observations from a re-analysis of the deposited data

Results flagged for a closer look

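The change from day 30 to day 40 correlated with log2 gene length at -0.223 in droughted and at 0.0794 in control seeds, so the 2 treatments ran opposite ways. Likewise, 23 of 25556 genes were at least 2-fold apart over these days in opposite directions in the 2 treatments. Their number was 16 with the length trend removed and 5 among genes averaging 20 CPM or more. Each treatment had 1 library per day, and neither difference was tested.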

How the results depend on the processing

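No paired analysis was possible because each treatment and day had 1 library, so the pair of drought libraries had no repeat. A fit over both treatments, which would not be of the drought step alone, was not run. With genes averaging 1 CPM or more, 6409 genes were 2-fold higher at day 40 and 6681 lower, 2464 and 2467 at 4-fold, and 786 and 536 at 16-fold. At 20 CPM these were 1445 and 856, 661 and 245, and 268 and 49. Without a filter they were 12156 and 12710, 5944 and 5669, and 1515 and 949. With library totals alone 1469 genes were 2-fold higher and 10682 lower, 768 and 2360 at 4-fold, and 306 and 371 at 16-fold. Relative log expression factors, a prior of 2 reads, FPKM, removal of the length trend and leaving out new gene models kept all 6 counts within 1.5 times. For switched genes, a limit of no read gave 59 on and 51 off, a level of 1 CPM gave 796 and 2162, and a level of 20 CPM gave 53 and 16. A common CPM floor gave 240 on, and library totals gave 316 off. The share of the 10 most abundant genes at days 30 and 40 was 5.66% and 35.2% with reads divided by gene length, 2.46% and 23.1% without the most abundant gene, and 6.94% and 32.1% in FPKM. For the 100 most abundant it was 14.6% and 52.8%, 10.3% and 38.0%, and 21.5% and 52.3%. The correlation with log2 length was -0.251 at 20 CPM, -0.180 at 1 CPM, -0.277 without genes 4-fold apart and -0.162 in FPKM. In FPKM the median of genes up to 400 bases was -0.18 and that of genes over 2500 bases -0.40. The correlation with the control step was 0.845 at 20 CPM and 0.819 with the length trend removed. Filters change the number of genes by construction, and the causes of the other moves were not tested. Depth limits what "off" can mean, since 3 reads at drought day 40 were worth 0.378 CPM.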
